A study of Mus musculus with 4 samples.

Results

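The cells that the deposited annotation assigns to endothelium were compared between the vas deferens (144 cells) and the epididymis (101 cells, of which 50 came from caput, 39 from corpus and 12 from cauda). These cells were chosen by deposited cell type and library prefix, and made up 2.76% of the 8880 cells of the series. The authors had assigned the cell types by clustering on expression in the same cells, so the label itself rests on measured levels. The series profiled RNA of single cells from the male reproductive tract of FVB/NJ mice aged 10 to 12 weeks, with 3' droplet libraries that count molecules by unique molecular identifiers (UMIs). Each of the 4 regions was represented by 1 library, a pool of 8 tissue segments from 4 mice, depleted of sperm. With 1 library per region there was no replicate, so no difference between regions was tested, and region, pool and library cannot be told apart. Levels are given as UMIs per 1000000 UMIs of the endothelial cells of a library (UPM). Intervals are exact 95% intervals that cover counting error only, and UMIs are molecules of pooled cells rather than independent animals.

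Endothelium lines blood and lymphatic vessels, and its cells differ along the vascular tree: arterial cells carry Notch ligands and ephrin B2, capillary cells exchange solutes, and venous cells display selectins and other receptors that recruit leukocytes. Lymphatic endothelium drains fluid and immune cells and is marked by Prox1 and Lyve1. Endothelial cells also relay signals to the vessel wall, for example through endothelin 1, and can display antigen when they express major histocompatibility complex (MHC) molecules. In the epididymis and vas deferens, vessels lie in the stroma around a duct whose epithelium secretes proteins at very high levels, so transcripts of the epithelial principal cells are the most abundant free RNA to be looked for in other cells.

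The endothelial cells yielded 141625 UMIs in caput, 164349 in corpus, 74703 in cauda and 454661 in vas deferens. The median per cell was 2609 UMIs in the epididymis and 2581 in the vas deferens, so the pooled medians of both arms were close. Within the epididymis the medians were 2430 in caput, 2500 in corpus and 5011.5 in cauda, so cauda cells were deeper. Of all cells sequenced, those labelled endothelial made up 3.49% in caput, 1.68% in corpus, 0.743% in cauda and 4.11% in vas deferens. Over the 8880 cells, 43 barcodes occurred in more than 1 library, and 3 of the endothelial cells carried such a barcode.

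The label was checked against 22 endothelial markers, among them Pecam1 (platelet endothelial cell adhesion molecule), Cdh5 (VE-cadherin of endothelial junctions) and Emcn (endomucin). The paper lists Cd34, Tm4sf1, Icam2 and Emcn, which are in this list, for its endothelial cells. The check is therefore not independent of the label. Most cells carried them, but 27 cells had no UMI of any of the 22 genes, and 50 had fewer than 5. A cell was called marker-bearing when it held at least 5 UMIs of this list and more than of the list of any other cell type. This applied to 185 of the labelled cells: 30 of 50 in caput (60%), 25 of 39 in corpus (64.1%), 11 of 12 in cauda (91.7%) and 119 of 144 in vas deferens (82.6%). The remaining cells were of different kinds in different libraries. Of the 20 such cells in caput, 8 were led by muscle and mural markers and 9 by principal-cell markers. Of the 14 in corpus, 4 were led by muscle and mural markers, 4 by stromal markers and 3 by principal-cell markers. Of the 25 in vas deferens, 6 were led by immune markers, 7 by principal-cell markers and 4 by stromal markers, and 6 vas deferens cells also belonged to the cluster that held the immune cells. Because these cells went against their label unevenly, values below are those of the marker-bearing cells (66 from the epididymis with 288405 UMIs, 119 from the vas deferens with 404699) unless all labelled cells are named, and the counts of each gene list over all labelled cells are given beside those of the marker-bearing cells.

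**Figure D1:**
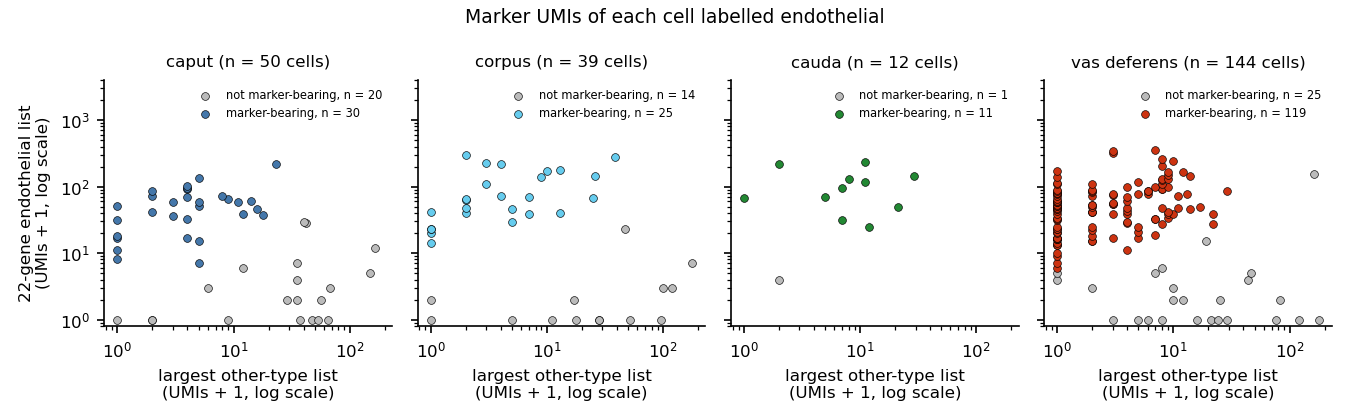
UMIs of the 22-gene endothelial list (vertical axis) against UMIs of the largest list of another cell type (horizontal axis) in every cell labelled endothelial, both plus 1 on log scales, 1 panel per library. Coloured points are marker-bearing cells and grey points the others; grey points number 20 of 50 in caput and 25 of 144 in vas deferens, and 1 of 12 in cauda.

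The levels of the endothelial list in marker-bearing cells are a description, since these cells were chosen by that list. Pecam1 stood at 864 UPM in caput, 658 in corpus, 833 in cauda and 786 in vas deferens. The vas deferens level was thus 1.03 times that of the epididymis (95% interval 0.861 to 1.22) and lay inside the range of the epididymal libraries. Tm4sf1, a tetraspanin-like membrane protein of endothelium, was the most abundant gene of the list, with 4834, 9186, 4796 and 10657 UPM in the same order. The vas deferens was thus nearest to corpus in this gene, and both stood well above caput and cauda. Of the 21 list members with enough UMIs, 0 passed 2-fold between the arms in either direction, in marker-bearing and in all labelled cells, and the median log2 ratio of the list was -0.13 and 0.11, against 0.10 and 0.04 over all genes.

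Genes were read by size: a gene was counted when it had at least 20 UMIs in the higher arm and levels that differed at least 2-fold. Among the marker-bearing cells, 3122 genes had at least 20 UMIs in 1 or both arms, of which 356 (11.4%) were higher and 264 (8.46%) lower in the vas deferens. Of these, 349 (11.2%) lay above each of the 3 epididymal libraries and 228 (7.3%) below each. Over all labelled cells, 359 of 3634 genes (9.88%) were higher and 343 (9.44%) lower, with 350 (9.63%) above and 246 (6.77%) below each epididymal library. Over all labelled cells, 233 genes were lower without caput, 228 without corpus and 309 without cauda. The higher genes were largely shared between both sets of cells: 264 were counted in both, 73.5% of those from all labelled cells and 74.2% of those from marker-bearing cells. Of the lower genes, 189 were counted in both, 55.1% and 71.6%. The marker-bearing cells held fewer UMIs, so fewer genes reached the minimum there. Without the minimum, 293 of the 359 higher and 271 of the 343 lower genes stayed past 2-fold in marker-bearing cells. Only 3 and 14 lay on the other side of 1. The minimum is in UMIs, and the vas deferens arm held more of them in both sets of cells. A gene of low level could therefore be counted more easily as higher than as lower, so the counts of higher and lower genes are not like for like. The shares of all genes counted are the background for the groups described below.

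**Figure D2:**
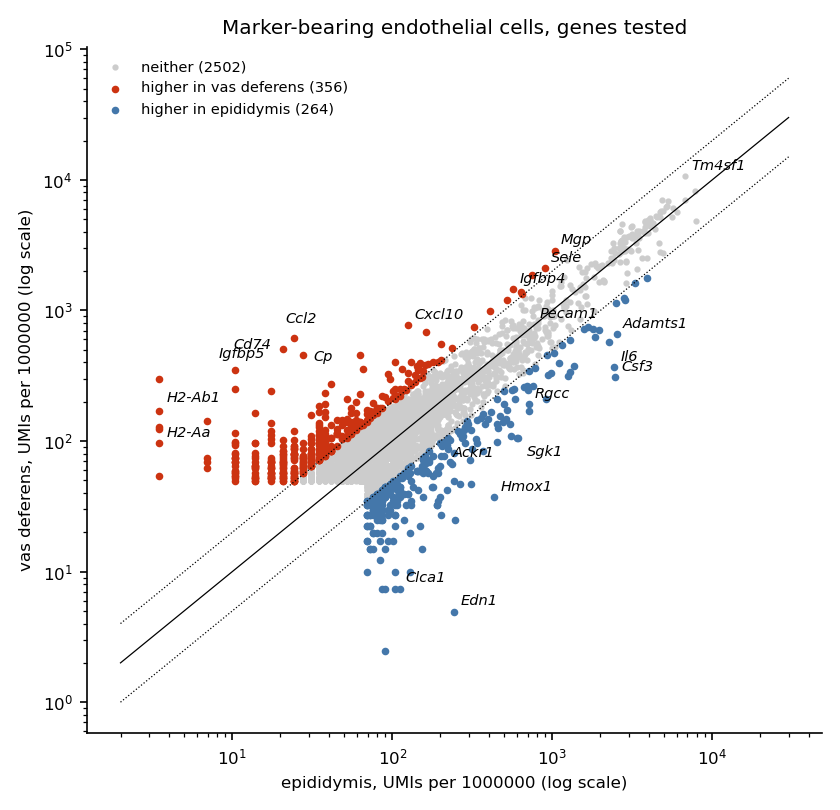
Level of each of the 3122 genes in marker-bearing endothelial cells of the epididymis (horizontal axis) and vas deferens (vertical axis), in UPM on log scales; the solid line marks equal levels, the dotted lines 2-fold, and a level of 0 is drawn at 3 UMIs over the arm. The 356 red genes were higher in the vas deferens and the 264 blue genes lower, with Cd74, H2-Ab1 and Igfbp5 far above the line and Edn1 and Hmox1 far below it.

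The list with the largest median ratio on the vas deferens side was MHC class II, the molecules that present extracellular peptides to helper T cells. All 3 members with enough UMIs of the 7 listed passed 2-fold upward in marker-bearing and in all labelled cells, and their log2 ratios had a median of 5.16 and 4.69. All 3 were below the minimum number of UMIs in the epididymis, so they could not have been counted as lower. Cd74, the invariant chain that escorts class II molecules to the endosome, had 34.1 UPM in caput, 23.8 in corpus, 0 in cauda and 509 in vas deferens. The vas deferens level was 24.5 times that of the epididymis (interval 11.1 to 67.4), and 25.7 times over all labelled cells. H2-Ab1, a class II beta chain (chromosome 17, 34263227 to 34269418, mm10), had 69 UMIs in the vas deferens (170.5 UPM) against a single UMI in caput and 0 in corpus and cauda, a ratio of 49.2 with an interval of 8.54 to 1970.0. H2-Aa, a class II alpha chain on the same chromosome (34282744 to 34287823), had 50 UMIs in the vas deferens (124 UPM) and 1 in the epididymis, a ratio of 35.6 (6.11 to 1435). In each of the 3 genes the vas deferens stood above every epididymal library, and a single cell held between 10.2% and 22% of the vas deferens UMIs.

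The sequence before the start of H2-Aa is shown because this gene and H2-Ab1 lie close together on chromosome 17 and moved together. RefSeq (GRCm38.p6) gives the 250 bases upstream at chr17:34287824-34288073 on the minus strand, printed 5′ to 3′ with the letters ATTGG, the reverse complement of a CCAAT box, in capitals.
H2-Aa: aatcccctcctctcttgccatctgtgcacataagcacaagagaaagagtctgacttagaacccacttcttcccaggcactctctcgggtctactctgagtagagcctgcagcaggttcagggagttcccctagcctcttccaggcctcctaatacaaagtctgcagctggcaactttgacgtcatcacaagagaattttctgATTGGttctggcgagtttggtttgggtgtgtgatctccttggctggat
ATTGG was searched on both strands, where it is found once, beginning 48 bases before the start. These letters occur in the same window of 33.8% of 32851 promoters, so a match of this kind is common and describes the sequence only.

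Immune cells held class II transcripts at far higher levels, which are given beside those of the endothelium. Cd74 reached 21381 UPM in immune cells of the vas deferens and 23581 in those of the epididymis. In other classes of the vas deferens library it stood at 223 UPM in basal cells and 23.5 in stromal cells, below the 509 of endothelium. Values of other immune-cell transcripts are given for the marker-bearing cells, from which cells led by the immune list had been left out. Ccl4, which immune cells of the vas deferens held at 17155 UPM, had 2 UMIs in marker-bearing endothelial cells of that library. Lyz2, lysozyme of macrophages and itself a member of the immune list, was at 0 there. The 15-gene immune list summed to 0 UPM in caput and corpus, 605 in cauda and 49.4 in vas deferens. Over all labelled cells the same library did hold immune transcripts: 246 UMIs of Ccl4, 136 of Ccl3 and 45 of Lyz2, of which 2, 0 and 0 lay in marker-bearing cells. The part of immune RNA in the class II values was not tested.

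Genes of the interferon response and MHC class I, which present intracellular peptides, were less uniform. Of 24 with enough UMIs, 4 were higher (Gbp2, H2-Q7, Irf8 and Psmb9) and 1 lower (Irf7), with a median log2 ratio of 0.41. In all labelled cells 7 of 25 were higher, with Bst2, H2-Q4, Psmb8 and Tap1 in place of Gbp2, and 2 were lower, Irf7 and Ifitm1. Psmb9, an immunoproteasome subunit, had 56.9, 63.5, 53.7 and 133 UPM in caput, corpus, cauda and vas deferens. Its ratio was 2.26 (1.29 to 4.17). Irf7, a transcription factor of the interferon response, went the other way with 79.6, 190.4, 175 and 59.3 UPM, 2.57 times higher in the epididymis (1.53 to 4.42).

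**Figure D3:**
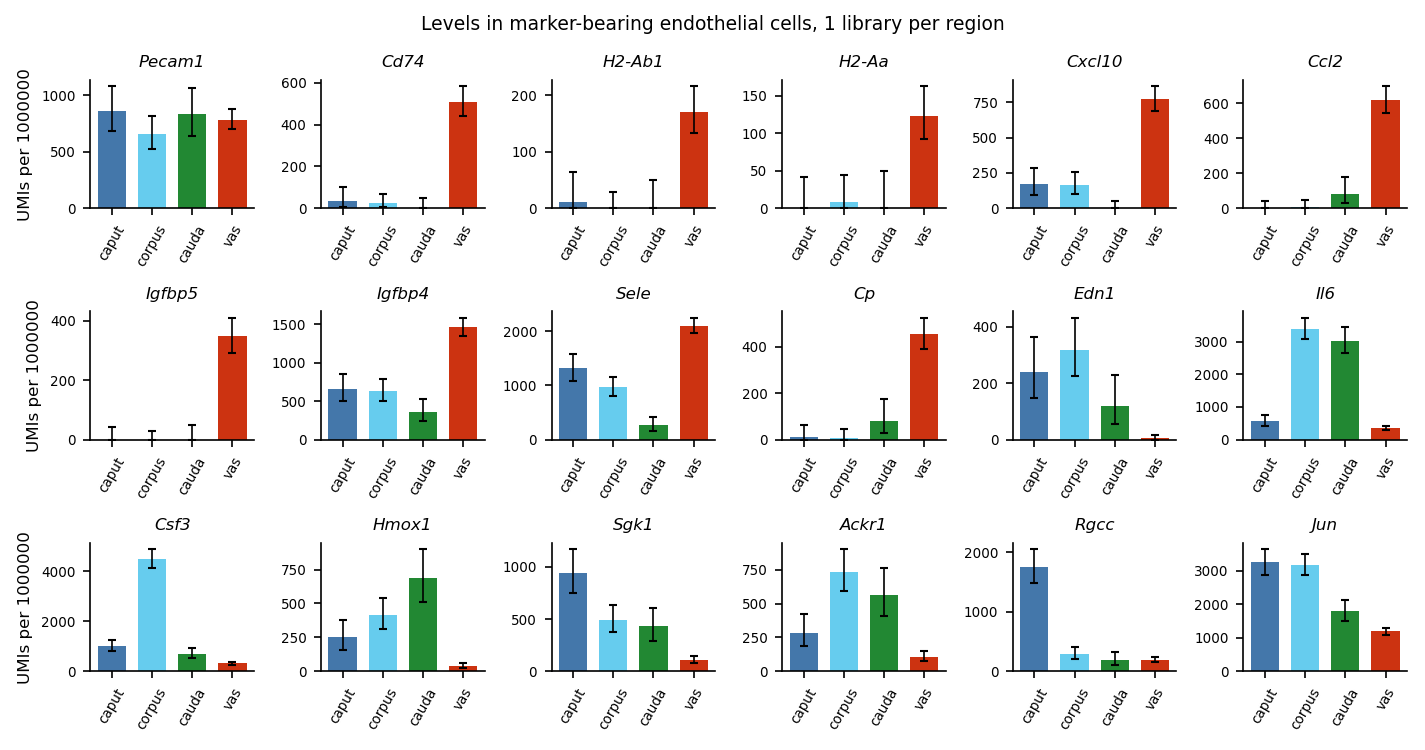
Levels (UPM, linear axis from 0) of 18 genes in marker-bearing endothelial cells, 1 bar per library (caput 30, corpus 25, cauda 11 and vas deferens 119 cells) with exact 95% Poisson intervals for counting error. Pecam1 is level across the libraries, Cd74, H2-Ab1, H2-Aa, Ccl2 and Igfbp5 are highest in the vas deferens, and Edn1, Hmox1 and Sgk1 are lowest there.

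The list of chemokines and cytokines, which attract and activate leukocytes, and of some of their receptors held genes of both directions. Of 14 with enough UMIs, 5 ligands were higher in the vas deferens (Ccl2, Ccl7, Csf1, Cxcl10 and Cxcl16), and 3 ligands (Csf3, Cxcl12 and Il6) and 2 receptors (Ackr3 and Il1r1) lower, in marker-bearing and in all labelled cells. Cxcl10, an attractant of T cells, had 171 UPM in caput, 167 in corpus, 0 in cauda and 773 in vas deferens, a ratio of 6.20 (4.38 to 9.01) that was 3.18 over all labelled cells. Ccl2, an attractant of monocytes, had 0, 7.93, 80.6 and 615 UPM in the same order. Its ratio of 25.3 (12.1 to 63.7) depended on the choice of cells and on single cells: it was 2.34 over all labelled cells, where caput reached 169 UPM and corpus 1022, and 1 cell held 37.8% of the vas deferens UMIs.

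On the other side stood the myeloid growth factor Csf3 and the inflammatory cytokine Il6. Csf3 had 1024 UPM in caput, 4498 in corpus, 699 in cauda and 309 in vas deferens, and was 7.96 times higher in the epididymis (6.57 to 9.70). Corpus carried much of that difference: over all labelled cells the vas deferens level was 0.149 times the epididymal level, and 0.422 times without corpus. Il6 had 569, 3395, 3023 and 368 UPM, so that caput was nearer to the vas deferens than to the other epididymal libraries, and the ratio was 6.62 in favour of the epididymis (5.54 to 7.95). Ptgs2, the inducible cyclooxygenase, had 603, 881, 134 and 106 UPM. Cxcl12, a chemokine for CXCR4-bearing cells, had 307, 777, 322 and 148 UPM and was 3.48 times higher in the epididymis (2.57 to 4.78).

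The vessel-type lists were read next, and they moved in different directions. Some of their members are markers that the paper reported for subclusters of these same endothelial cells. Among them are Cxcl12, Esm1, Ly6c1, Plk2, Rgcc, Dll4, Edn1, Sox17, Cp and Fxyd6. The lists are therefore not independent of these data or of each other, and their counts are a description. Of 10 capillary genes with enough UMIs, 6 were lower in the vas deferens (Cxcl12, Esm1, Ly6c1, Plk2, Rgcc and Sgk1) and 0 higher, with a median log2 ratio of -1.34. Among all labelled cells 5 of 10 were lower, without Ly6c1, and the median of -1.04 moved to -0.30 without caput. Sgk1, a serum- and glucocorticoid-induced kinase, had 944 UPM in caput, 492 in corpus, 429.9 in cauda and 106 in vas deferens, 5.78 times higher in the epididymis (4.12 to 8.26). Rgcc and Esm1 were caput genes rather than genes of the epididymis as a whole. Rgcc, a regulator of the cell cycle, had 1752 UPM in caput against 294, 188 and 193 in corpus, cauda and vas deferens. Esm1, a proteoglycan of angiogenic tip cells, had 671 UPM in caput and 15.9, 26.9 and 42.0 elsewhere, and without caput its direction over all labelled cells turned, to 2.23 times higher in the vas deferens.

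Of 7 arterial genes with enough UMIs, 4 were lower in the vas deferens (Dll4, Edn1, Efnb2 and Sox17) and 1 higher (Mgp). With all labelled cells 7 of 10 were lower, Eln, Fbln5 and Gja4 being the others, and the median log2 ratio of -1.37 became 0.49 when cells were thinned to 1000 UMIs. Edn1, which encodes the vasoconstrictor endothelin 1 (chromosome 13, 42301476 to 42307990), had the largest difference of all genes that were lower in the vas deferens in the ranking by counting interval. It had 239 UPM in caput, 317 in corpus, 121 in cauda and 4.94 in vas deferens, where only 2 UMIs were found. The epididymal level was 49.1 times higher (13.1 to 414), although 1 cell held 41.4% of the epididymal UMIs. Sox17, an arterial transcription factor, had 307, 365, 309 and 104 UPM and was 3.21 times higher in the epididymis (2.21 to 4.73). Dll4, a Notch ligand, was 2.37 times higher (1.47 to 3.89) and Efnb2, ephrin B2, 2.75 times (1.65 to 4.70). Mgp, an inhibitor of calcification found in the vessel wall, was higher in the vas deferens, with 1877, 643, 712 and 2869 UPM and a ratio of 2.77 (2.43 to 3.15).

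The 13 venous genes held members of both directions: Nr2f2 and Sele were higher in the vas deferens, and Ackr1 and Lrg1 lower. When all labelled cells were taken, 1 of 14 was higher, Sele, and 3 were lower, with Slc38a5 added, while Nr2f2 had a ratio of 1.77. Sele, E-selectin, on which leukocytes roll, had 1319 UPM in caput, 968 in corpus, 269 in cauda and 2105 in vas deferens, a ratio of 2.35 (2.05 to 2.72). Ackr1, the venular receptor that carries chemokines across endothelium, had 284, 738, 564 and 109 UPM and was 5.10 times higher in the epididymis (3.63 to 7.30). Among the 12 leukocyte adhesion genes, Jam2 and Podxl were also lower (Podxl not over all labelled cells), while Vcam1 (ratio 1.25), Icam1 (1.39) and Selp (1.53) stayed under 2-fold. Nr2f2, the transcription factor that sets venous identity, was 2.94 times higher in the vas deferens.

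Of 16 listed lymphatic genes, 4 had enough UMIs in marker-bearing cells. All 4 were higher in the vas deferens (Cp, Fxyd6, Lyve1 and Pard6g), but the defining markers were scarce. The minimum applied to the higher arm, and the vas deferens arm held more UMIs. A gene below the minimum in the epididymis, such as Cp (8 UMIs against 184), could not be counted as lower. The count of 4 therefore does not show a direction of the list. Over all labelled cells 5 had enough UMIs, and Pdpn, also a gene of stromal and epithelial cells, was lower, with 14 UMIs in the vas deferens against 24 in the epididymis and 0 in the marker-bearing cells of every library. Of the 5 genes Prox1, Lyve1, Mmrn1, Ccl21a and Flt4, a UMI of at least 1 was found in 25 of 119 marker-bearing cells of the vas deferens (21.0%, median 2799 UMIs per cell) and in 6 of 66 of the epididymis (9.09%, median 2782), 2 each in caput, corpus and cauda. Among basal cells, an epithelial type, such a UMI was found in 6 of 394 of the vas deferens (1.52%, median 3647) and 14 of 1018 of the epididymis (1.38%, median 5550.5). Lyve1, a hyaluronan receptor, had 0, 0, 40.3 and 56.8 UPM, so cauda and vas deferens were close. Cp, the copper-carrying ferroxidase ceruloplasmin, had 11.4, 7.93, 80.6 and 455 UPM and a ratio of 16.4 (8.15 to 38.5), which was 18.9 without the cells that held a lymphatic marker. Fxyd6, a regulator of the sodium pump, had 0, 0, 67.2 and 239.7 UPM. Over all labelled cells Cp was 2.84 times higher, with 141 UPM in caput and 195 in corpus.

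**Figure D4:**
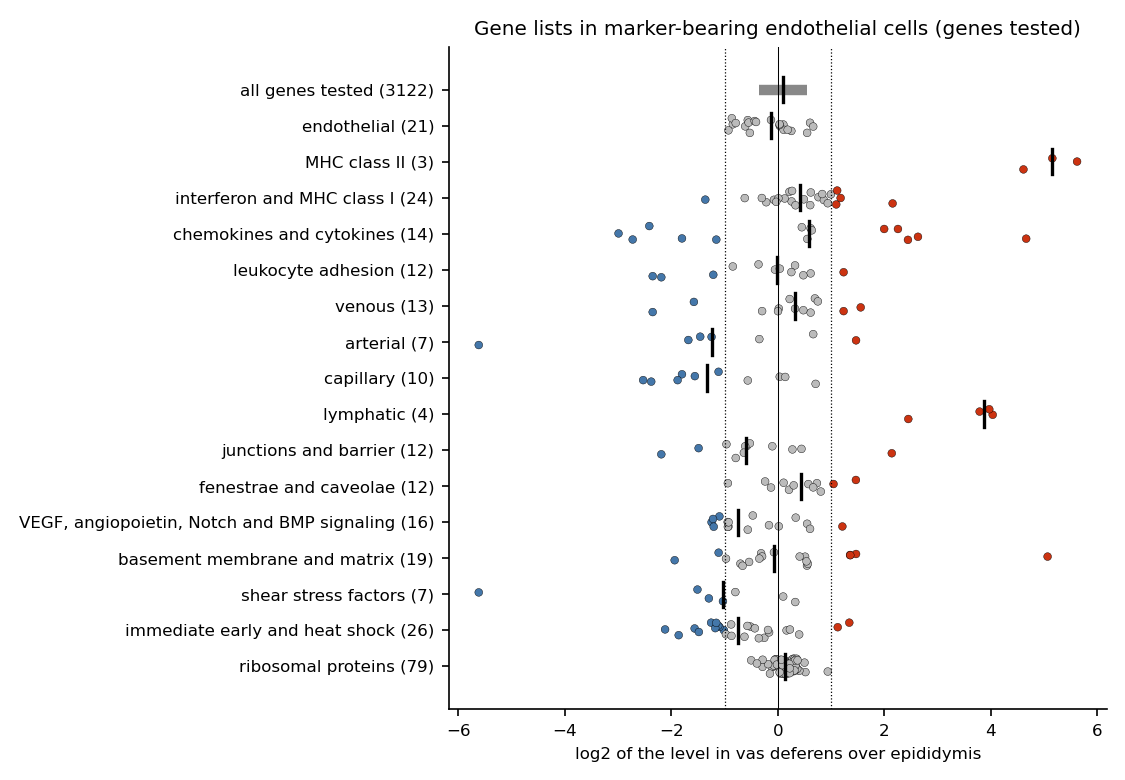
Log2 of the vas deferens over the epididymal level in marker-bearing cells, 1 point per gene with enough UMIs and 1 row per gene list (number of genes in parentheses); black bars are medians, dotted lines 2-fold, red and blue points genes counted as higher or lower, and the grey bar of the top row the interquartile range of all 3122 genes. MHC class II and lymphatic genes lie to the right, and most capillary and arterial genes to the left.

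The list of immediate early genes, which are switched on within minutes of a stimulus, and heat shock genes had 26 members with enough UMIs. Of these, 10 were lower in the vas deferens, 14 stayed under 2-fold, and 2 were higher, Hspa1a and Hspa1b, both of which encode the heat shock protein HSP70. In all labelled cells 9 were lower and the same 2 higher. Jun had 3242 UPM in caput, 3173 in corpus, 1800.2 in cauda and 1191 in vas deferens, and was 2.38 times higher in the epididymis (2.13 to 2.67). Btg2, an antiproliferative gene, had 1627, 1103, 1505 and 376 UPM, a 3.64-fold difference (3.01 to 4.42). Fos had 2582, 2110.2, 591 and 630.1 UPM, so that the cauda level lay with the vas deferens. Hspa1a went against these genes, with 751, 729.8, 752 and 1880.4 UPM and a ratio of 2.53 (2.17 to 2.96).

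Of 7 shear stress genes, 4 were lower in the vas deferens (Edn1, Klf2, Klf4 and Thbd), and over all labelled cells 4 of 8, with Cyp1b1 in place of Klf2. Klf4, a transcription factor that responds to flow, had 535, 944, 497 and 247 UPM in caput, corpus, cauda and vas deferens, and was 2.85 times higher in the epididymis (2.23 to 3.66). Thbd, the anticoagulant receptor thrombomodulin, was 2.46 times higher (1.81 to 3.36). Hmox1, the haem-degrading enzyme, had 250.2, 413, 685 and 37.1 UPM, and its epididymal level was 11.7 times higher (6.82 to 21.5). In the VEGF, angiopoietin, Notch and BMP list, 4 of 16 were lower (Dll4, Id2, Id3 and Smad7) and Tgfbr2, a TGF-beta receptor, was higher at 91.0, 71.4, 40.3 and 161 UPM. Among all labelled cells 3 of 17 were lower (Bmp4, Dll4 and Id3) and Tgfbr2 higher.

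Matrix genes also divided, with 4 of 19 higher (Igfbp4, Igfbp5, Lamc1 and Mgp) and 2 lower (Adamts1 and Col4a2). With all labelled cells the same 4 of 20 were higher, and Lamb2 was lower besides these 2. Igfbp5, which binds insulin-like growth factors, was at 0 in the marker-bearing cells of all 3 epididymal libraries and at 348 UPM (141 UMIs) in the vas deferens. Its ratio was 33.5 with that 0 set to 3 UMIs over the epididymal arm. A single cell held 32.6% of the vas deferens UMIs, and over all labelled cells the ratio was 6.02 (3.80 to 10.0). Igfbp4 was broader, with 659.7, 627, 363 and 1460.3 UPM and a ratio of 2.57 (2.16 to 3.07). Adamts1, a metalloprotease that cleaves proteoglycans, had 1433, 3070.1, 2942 and 662 UPM and was 3.83 times higher in the epididymis (3.33 to 4.42). Col4a2, a chain of the basement membrane collagen IV, had 785, 238, 429.9 and 210.0 UPM.

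Beyond the lists, the genes ranked highest by counting interval in marker-bearing cells of the vas deferens included Sdc4, Fam102b, Pf4, Plekhf1 and Cyp2e1. Sdc4, a heparan sulfate proteoglycan of the cell surface, had 0, 23.8, 0 and 249.6 UPM, a ratio of 24.0 (7.98 to 118) that was 2.98 over all labelled cells. Cyp2e1, a cytochrome P450, had 30 UMIs in the vas deferens and 0 in each epididymal library, a ratio of 7.13 with that 0 set to 3 UMIs. Pf4, platelet factor 4, had 58 UMIs against 2, a ratio of 20.7 (5.47 to 175), and was also higher in stromal cells (22.2 times) and immune cells (4.25 times) of the vas deferens. Among the genes ranked highest on the epididymal side was Slc6a6, a taurine transporter. It had 637 UPM in caput, 87.3 in corpus, 53.7 in cauda and 24.7 in vas deferens, so caput held most of it.

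Stromal, basal and immune cells come from the same 4 libraries, so their ratios are set beside those of the endothelium and are not independent of them. Cd74 was 2.53 times higher in stromal cells of the vas deferens, 3.02 times in basal cells and 0.907 times in immune cells, against 24.5 in marker-bearing endothelial cells. Ccl2 was 13.3 times higher in stromal and 17.7 times in basal cells, so its direction ran through these classes, as did that of Igfbp4 in stromal cells (12.5 times). Il6 stood in the opposite order in stromal and immune cells, whose epididymal levels were 0.579 and 0.134 times those of the vas deferens, against 6.62 in endothelium. The corresponding values for Csf3 were 0.256 in stromal, 3.69 in basal and 0.216 in immune cells. The epididymal over vas deferens ratios of Sgk1 (1.40, 0.670 and 1.87 in stromal, basal and immune cells) and Adamts1 (1.07, 0.565 and 0.456) stayed under 2-fold toward the epididymis in these classes. No difference between cell classes was tested.

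**Figure D5:**
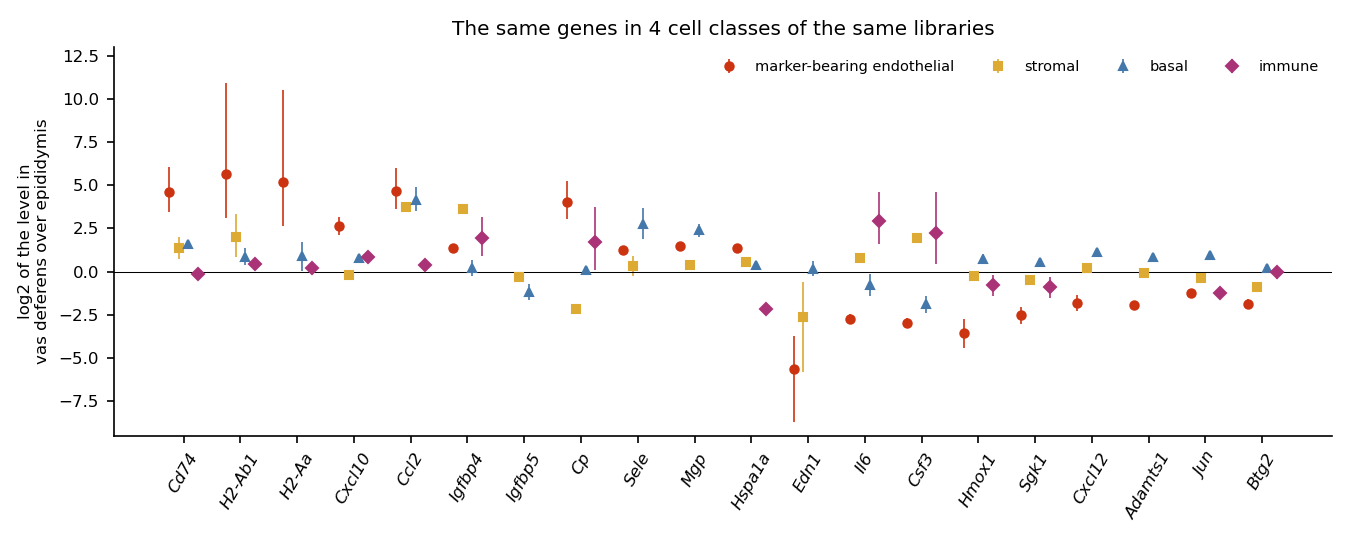
Log2 of the vas deferens over the epididymal level of 20 genes in marker-bearing endothelial, stromal, basal and immune cells of the same libraries, with exact 95% intervals for counting error; classes with a 0 in 1 arm or under 20 UMIs in both arms together are not drawn. Cd74, H2-Ab1 and H2-Aa lie near 0 in immune cells and far above it in endothelial cells, and Il6 and Csf3 lie below 0 in endothelial and above 0 in stromal and immune cells.

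Principal-cell transcripts were measured in each library as the level of its principal-cell genes in endothelial cells over that in principal cells. This share was 1.39% in caput (1.24 to 1.54), 1.83% in corpus (1.55 to 2.15), 0.594% in cauda (0.441 to 0.783) and 1.22% in vas deferens (1.11 to 1.33). These UMIs lay in 31 of 50 caput, 14 of 39 corpus, 5 of 12 cauda and 36 of 144 vas deferens cells, and 1 cell held 29.5% of them in corpus, so free RNA, doublets and mislabelled cells cannot be told apart in this share. It was lower in marker-bearing cells of 3 libraries, at 0.691% in caput, 0.815% in corpus and 0.545% in vas deferens, while cauda remained at 0.596%. A gene was set apart when this share of its level in the other cells of the library came to at least 10% of its endothelial level. Over all labelled cells this applied to 4 of the 359 higher genes (1.11%), namely Akr1b7, Actg2, Dbi and Plac8, and to 23 of the 343 lower genes (6.71%), with Spag11b, Gpx5, Defb20, Slc38a5 and Wfdc10 the most abundant. Akr1b7, an aldose reductase-like enzyme of vas deferens epithelium, had 120 UMIs in marker-bearing vas deferens cells and 1 in the epididymis, and was 675 times higher in basal cells of the vas deferens too. Gpx5, a secreted glutathione peroxidase of caput epithelium, was found in caput alone, at 861 UPM over all caput cells and 296 in marker-bearing cells, where 1 cell held 57.7% of the UMIs. For the MHC class II genes, expected background by this rule was 0.791% of the Cd74 level, 0.662% of H2-Ab1 and 0.675% of H2-Aa. The rule is scaled by principal-cell genes, so it does not measure immune RNA from doublets or mislabelled cells. That part was not tested.

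Markers of other cell types were among the lower genes when all labelled cells were used. The muscle and mural list, contractile and pericyte genes of the vessel wall, summed to 4081 UPM in caput, 1552 in corpus, 174 in cauda and 614 in vas deferens. In marker-bearing cells the same list summed to 79.6, 254, 175 and 516 UPM. Rgs5, a pericyte marker, was 50.8 times higher in the epididymis over all labelled cells (13.6 to 426), and was at 0 in the marker-bearing cells of every library. Myh11, smooth muscle myosin, was likewise at 0 there. Acta2, smooth muscle actin, turned from 0.181 times the epididymal level in the vas deferens to 3.16 times (1.36 to 8.49), and Serping1, a complement inhibitor, from 0.0866 to 2.14 times (0.382 to 21.7). In marker-bearing cells 4 of 5 list members with enough UMIs, Acta2, Actg2, Mylk and Tpm2, were counted as higher in the vas deferens. The summed muscle list was also highest there. Tagln, the other member, was counted as lower (log2 ratio -2.54). Acta2 (7 UMIs) and Actg2 (0) were below the minimum number in the epididymis, so they could not have been counted as lower. Over all labelled cells Actg2 alone of the list was counted as higher, and Tagln was again lower. The part of muscle RNA in these values was not tested.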

How the data were processed

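The authors pooled tissue per region, prepared 10x 3' libraries, aligned reads with HISAT2 2.0.4 to mm10 and counted UMIs per RefSeq gene. They merged single-read UMIs within 1 mismatch, removed ambient RNA with a modified SoupX and assigned cell types by clustering. The deposited matrix holds counts (whole UMIs per gene and cell) for 16892 genes and 8880 cells, as the values show. The deposited annotation gave cell types; no mitochondrial genes were listed. UMIs were summed over the endothelial cells of each library and scaled to UPM with Python 3.11.15 (numpy 2.4.6, scipy 1.17.1). With 1 library per region no test or p-value was possible: ratios carry exact conditional 95% intervals and levels exact Poisson intervals. A gene counted as higher or lower at 2-fold with at least 20 UMIs in the higher arm; a 0 was set to 3 UMIs over the arm, and no ratio was given with 3 or fewer UMIs in both. The rule was tested on simulated counts. Named genes were the 12 per direction with the bound nearest 1 of the interval farthest from 1, the counted members of each list (up to 6, otherwise the 3 most abundant), the 5 most abundant genes set apart as possible background and 6 label markers. The same ranking in marker-bearing cells, and other genes named only inside counts, were added after values were seen. Members, lists and rules were chosen with earlier results of these data known. No doublet caller was run; the marker rule, added after the data were seen, stands in its place. TMM factors came from edgeR 4.0.16. Coordinates are those of RefSeq GRCm38. Some genes that met the naming rule are not reported here.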

Additional observations from a re-analysis of the deposited data

How the results depend on the processing

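Counts of genes followed the thresholds. At 1.5-fold, 754 genes were higher and 683 lower (675 and 490 beyond each epididymal library), and at 4-fold 78 and 92 (77 and 48). With at least 10 UMIs there were 685 and 685 (655 and 455), with at least 50 UMIs 128 and 124 (128 and 101), and with the interval's own bound past 2-fold 77 and 115 (77 and 69). With each of the 200 cells of at least 1000 UMIs thinned to that depth, in a single draw, 147 and 95 remained countable (136 and 71), since fewer UMIs reach the minimum. Without the 140 cells that held 3 UMIs of another type's list, the higher genes beyond each epididymal library numbered 229 and the lower genes 137 (99 beyond each library). Leaving out 1 epididymal library at a time gave 383 to 484 higher and 228 to 309 lower genes (382 to 478 and 178 to 280 beyond each library), with the 228 reached without corpus. Scaling by TMM factors, totals without ribosomal protein genes, equal weight to the epididymal libraries and removal of the expected background kept each count within 1.5 times.

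The principal-cell share with 30 leading genes of each library was 2.16% in caput, 1.52% in corpus, 0.916% in cauda and 2.21% in vas deferens. In caput cells of at least 1000 UMIs it was 1.14%. As a median over genes it was 1.26% in corpus, 0% in cauda and 0.967% in vas deferens. Without cells holding 3 UMIs of another type it was 0% in caput, cauda and vas deferens and 0.0815% in corpus, as that alternative removes cells by the same genes. Marker-bearing cells gave 0.691% in caput, 0.815% in corpus and 0.545% in vas deferens.

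Ratios of vas deferens over epididymis crossed 1 for the following named genes past 2-fold. In marker-bearing cells they became 3.16 for Acta2, 1.43 for Col1a2, 2.38 for Des, 1.32 for Gja4, 1.43 for Myl9, 1.19 for Perp and 2.14 for Serping1. Without cells that held a lymphatic marker as well, they were 3.73 for Acta2, 1.12 for Col1a2 and 1.69 for each of Des, Gja4, Myl9 and Serping1. Without cells holding 3 UMIs of another type, Des was at 2.09, H2-Q4 at 0.805 and Wfdc17 at 0.697. Leaving out 1 epididymal library gave 0.398 to 1.24 for Bmp4, 0.121 to 2.23 for Esm1, 0.206 to 2.28 for Gja4, 0.152 to 1.05 for Krt18, 0.139 to 1.84 for Krt8 and 0.285 to 2.63 for Perp; Bmp4 crossed without corpus and the others without caput. Of named genes under 2-fold, Crisp1 went from 1.28 to 0.339 and Plvap from 1.08 to 0.914 in marker-bearing cells. The cause was not tested. Of the median log2 ratios of the lists, 18 moved by more than their counting width and 317 did not. That of the capillary list became -0.30 without caput and that of the arterial list 0.49 in thinned cells. That of the muscle and mural list was -2.28 over 10 genes in all labelled cells. In marker-bearing cells it was 2.42 over 5 genes, so these medians cover different genes.

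No paired analysis was possible because each region had 1 library. The deposited annotation put all endothelial cells in 1 subcluster, so no value within subclusters could be given. The cauda arm, with 12 cells, limits what can be said of single libraries: a gene at 0 there could still stand at 40.2 UPM.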

Other observations

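Other gene groups in the marker-bearing endothelial cells are described here. Of 36 Hox genes, which pattern the body axis, 3 had enough UMIs, and 2 of these were higher in the vas deferens. These 2, Hoxb7 and Hoxb9, were below the minimum number of UMIs in the epididymis, so they could not have been counted as lower. Hoxb7 had 45.5 UPM in caput, 15.9 in corpus, 13.4 in cauda and 74.1 in vas deferens, a ratio of 3.05 with a counting interval of 1.31 to 8.24. Hoxb9 had 45.5, 23.8, 80.6 and 91.4 UPM, so cauda and vas deferens were close.

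Of 12 junction and barrier genes, Cgnl1, a junctional adaptor, was higher in the vas deferens (4.41 times, 2.31 to 9.24), and Abcb1a, an efflux transporter of barrier endothelium, was higher in the epididymis (2.81 times, 2.01 to 3.95). Jam2 was also lower in the vas deferens (log2 ratio -2.19). The median log2 ratio of this list was -0.60, against 0.10 over all genes. Of 12 genes of fenestrae and caveolae, Ehd2 (2.76 times) and Ptrf (2.06 times) were higher in the vas deferens, but over all labelled cells they stood at 1.997 and 1.80 times, under 2-fold, and 0 of the 12 were counted. Plvap, the diaphragm protein of fenestrae, had 0.914 times the epididymal level (0.780 to 1.07). All 79 ribosomal protein genes with enough UMIs stayed under 2-fold, with a median log2 ratio of 0.14.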
